A study of Drosophila melanogaster with 4 samples.

Results

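The odorant and gustatory receptor families of Drosophila melanogaster were followed on arrays that compared RNA co-precipitated with the splicing factor dASF/SF2 with RNA recovered with a control protein. Members were all probes whose single gene symbol in the platform annotation was Orco or began with Or or Gr and a number. These were 114 of the 12236 genes named on the array, read by 118 of its 15744 probes. Odorant receptors had 59 probes for 58 genes and gustatory receptors 59 probes for 56 genes. Odorant receptors are membrane proteins of olfactory neurons. A neuron usually makes 1 tuning receptor, which forms an ion channel together with the shared co-receptor Orco. Gustatory receptors are a related family found in taste neurons, where several are made together for sugars, bitter compounds or pheromones, and a few sense carbon dioxide in olfactory neurons. Both families are known for low transcript levels confined to few cells, and the eye disc is not their usual site.

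Both sets of larvae carried GMR, a driver of transgenes in the developing eye. In one set it drove a GFP fusion of dASF/SF2, which belongs to the SR proteins, and in the control set it drove nuclear GFP (GFP-NLS). An antibody to GFP was used for the immunoprecipitation (IP), each time from the anterior ends of 600 pooled larvae of the 3rd instar, which hold head, brain and sense organs beside the eye discs. There were 4 arrays in 2 numbered replicates, with both dye orientations in each. Arrays of the same number were paired here as dye swaps, and the labels do not say whether they share an IP. Below, a Cy5 array is one with the dASF/SF2 IP in Cy5, and a Cy3 array one with the dASF/SF2 IP in Cy3. The labels do not say whether the larvae of each replicate were raised apart, so the p-values below rest on a spread that may be technical.

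The values are the authors' deposited log ratios, centred here on each array's median. Neither the base nor the numerator of the ratio is stated, so values are in log-ratio units and no direction towards either IP is assigned. Each receptor therefore has a mean under 2 readings. In the turned reading the Cy3 arrays have their sign reversed before averaging, which is the IP comparison if the deposited values are dye ratios. In the reading as deposited no sign is reversed, which is the IP comparison if the values already are ratios of one IP to the other. If the values are dye ratios, a sign kept across the dye swap goes with the dye or the probe, not with the IP. Over all probes tested, 28.1% had 1 sign on all 4 arrays turned and 13.6% as deposited. An unadjusted p under 0.05 in limma was found for 23.2% turned and 5.57% as deposited. Which reading holds was not tested. A log ratio holds no level, so the tissue could not be checked against eye markers. Fewer cells of a type in a dissection, less RNA per cell and less RNA bound cannot be told apart in such samples.

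Receptor probes often had no value. Of the 118 probes, 77 (65.3%) had a value on all 4 arrays, where 81.6% of all 15744 probes did. Odorant receptors had 41 complete probes of 59 and gustatory receptors 36 of 59. The share of probes with a value was below that of all probes in both families on every array. On the Cy3 array of replicate 1, 78.0% of odorant and 67.8% of gustatory receptor probes had a value, against 87.7% of all probes. On the Cy5 array of replicate 2 the shares were 93.2%, 88.1% and 97.4%.

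**Figure D1:**
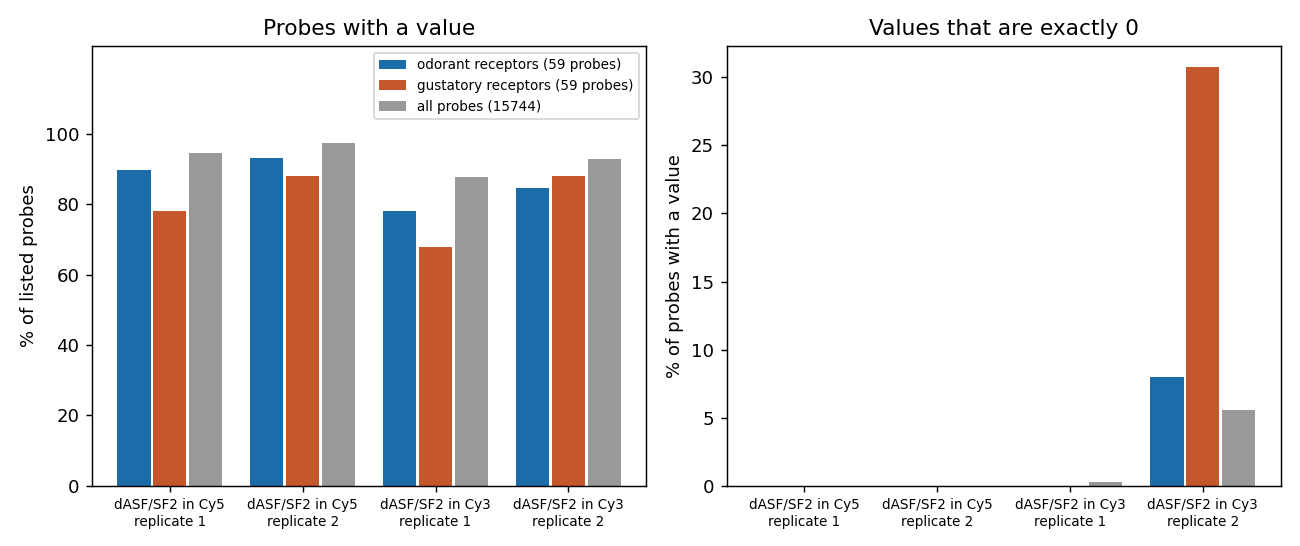
Left, the percentage of listed probes with a value on each array. Right, the percentage of those values that are exactly 0. Bars show odorant receptors, gustatory receptors and all probes, and on the Cy3 array of replicate 2 an exact 0 was given for 30.8% of measured gustatory receptor probes, 8.0% of odorant receptor probes and 5.55% of all probes.

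Exact zeros were concentrated on 1 array. The Cy3 array of replicate 2 held 16 exact zeros among 52 measured gustatory receptor probes and 4 among 50 odorant receptor probes, and 0 members were exactly 0 as deposited on the other arrays. Whether such a zero is a measured ratio or a filled-in value is not stated. Of the 20 zeros, 15 belonged to probes lacking a value elsewhere, and the 5 complete probes with one were gustatory. Among all probes, 648 of the 811 zeros on this array likewise belonged to incomplete probes.

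The incomplete members include receptors of central roles. Orco, the co-receptor needed by all tuning odorant receptors, was measured on the Cy5 arrays only, at -0.193 in replicate 1 and -0.064 in replicate 2, so it has no value in the dye-swapped orientation and was not tested. Or22a, tuned to fruit esters, Or46a, of the maxillary palp, and Gr64b, of the sugar receptor cluster, had no value on any array. Or85c, Gr36b, Gr64a, Gr93c and 1 probe of Gr39a had a value on 1 array.

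A further 18 probes had values on 2 arrays. They were those of Orco, Or7a, Or22b, Or65b, Or65c, Or82a, Gr9a, Gr22a, Gr22c, Gr22f, Gr58a, Gr59a, Gr59d, Gr59f, Gr85a, Gr94a, Gr98b and a probe of Gr39a. The 15 with 3 values were Or33c, Or49a, Or59b, Or65a, Or85a, Or85b, Or94b, Or98a, Gr39b, Gr68a, Gr92a, Gr93d, Gr97a, Gr98c and the second probe of Or35a. The highest value of any member was on such a probe: the Gr39a probe measured on the arrays of replicate 2 stood at 2.056 on the Cy3 array and at 0.136 on the Cy5 array. Gr97a stood at -0.991 on the same Cy3 array, with 0.101 and -0.132 on the other arrays that measured it.

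Among complete probes, the median of each family lay above 0 on 3 of the 4 arrays. There, odorant receptors had medians of 0.161 and 0.054 on the Cy5 arrays of replicates 1 and 2, and 0.103 and -0.021 on the Cy3 arrays. Gustatory receptors had 0.1245 and 0.1285 on the Cy5 arrays, and 0.040 and -0.0225 on the Cy3 arrays. The medians of all 12847 probes tested ran from -0.005 to 0.009. Over every measured probe, complete or not, odorant receptors had 0.165 and 0.054 on the Cy5 arrays and 0.097 and -0.013 on the Cy3 arrays. Gustatory receptors had 0.1005 and 0.110 on the Cy5 arrays but -0.005 and 0 on the Cy3 arrays, so for them the positive median on a Cy3 array held among complete probes only.

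The number of complete probes above 0 was counted as well. On the Cy5 array of replicate 1, 35 of 41 odorant receptor probes and 25 of 36 gustatory receptor probes were above 0, against 49.2% of all probes tested. On the Cy5 array of replicate 2 the counts were 29 and 24, against 50.1%, and on the Cy3 array of replicate 1 they were 27 and 19, against 50.6%. On the Cy3 array of replicate 2 they were 15 and 11, against 51.9%, with 5 of the 36 gustatory values exactly 0. Over every measured probe, 19 of 40 gustatory values were above 0 on the Cy3 array of replicate 1.

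**Figure D2:**
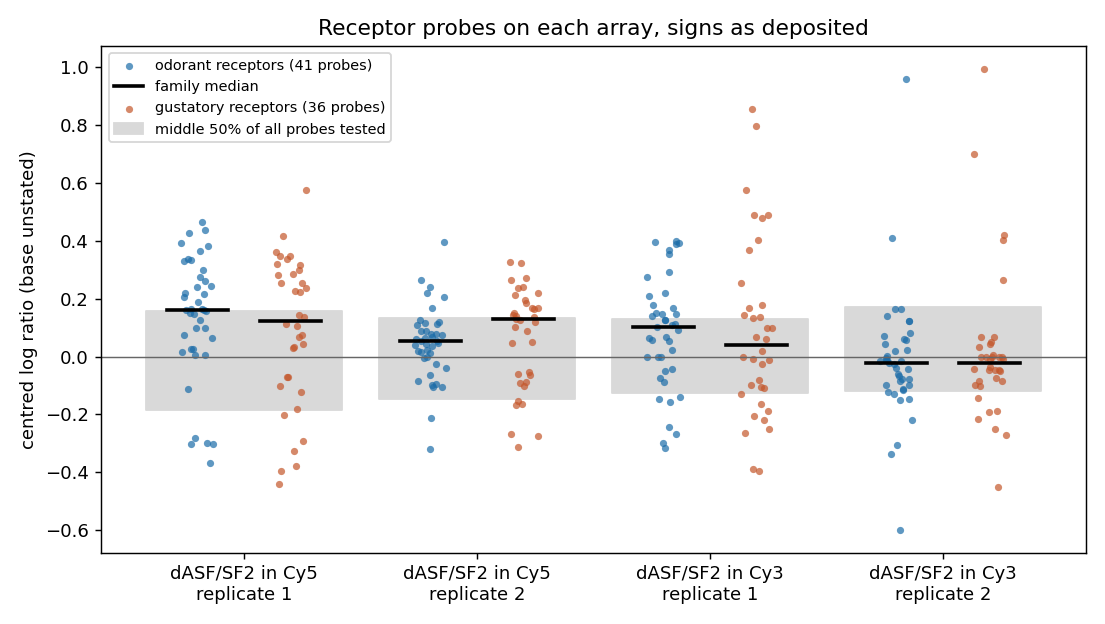
Centred log ratios (vertical axis, base unstated, signs as deposited) of the 41 odorant and 36 gustatory receptor probes measured on all 4 arrays. Black lines are family medians and grey boxes the interquartile range of all probes tested, and the family medians lie above 0 on both Cy5 arrays and the Cy3 array of replicate 1, and at -0.021 and -0.0225 on the Cy3 array of replicate 2.

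The arrays ordered the receptors alike only in part. Across the 77 complete members, which share arrays and are not independent, the Cy5 arrays correlated at a Pearson r of 0.489, and the dye-swapped arrays of replicate 1 at 0.463. For the dye-swapped arrays of replicate 2 the r was 0.068, and for the Cy3 arrays of both replicates 0.062. Over all probes tested the same 4 correlations were 0.435, 0.236, -0.054 and 0.264. The third of these differed with the measure and the probes taken: its Spearman rho was -0.467 over all probes tested and 0.059 over members, and its Pearson r over probes with 1 symbol was -0.565. Arrays of opposite dye were also compared across replicates. The Cy5 array of replicate 1 and the Cy3 array of replicate 2 had an r of 0.083 over members and -0.219 over all probes tested. The Cy5 array of replicate 2 and the Cy3 array of replicate 1 had 0.368 and -0.069. For odorant receptors alone the Cy5 arrays correlated at 0.657 and for gustatory receptors at 0.392.

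Adjusted over all probes, 0 receptors passed the threshold of 0.05 in limma under either reading, and 0 of 12847 probes did (a background of 0.0%). The lowest adjusted p of a member in limma was 0.138 turned and 0.752 as deposited. In the turned reading, 4 of 77 members (5.19%) had an unadjusted p under 0.05 in limma, against a background of 23.2% of all probes. As deposited the count was 9 of 77 (11.7%), against a background of 5.57%. With the replicate number as a block the latter count was 19 of 77, against 12.3% of all probes. The correlation within a block was estimated at -0.414 in that fit. The count of members and the share of all probes both rose with the block, and the reason was not tested.

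Those counts moved with single arrays. Turned, the count was 7 of 79 members without the Cy5 array of replicate 1 and 1 of 78 without that of replicate 2, against 14.5% and 12.2% of all probes. It was 6 of 86 and 4 of 80 without the Cy3 arrays of replicates 1 and 2, against 19.4% and 19.2%. As deposited it was 6 and 3 of the same 79 and 78 members without the Cy5 arrays, against 4.40% and 3.60%. It was 8 of 86 and 11 of 80 without the Cy3 arrays, against 4.90% and 9.03%. The arrays left out in these fits leave 1 replicate as a single array.

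The spread of the receptor means depended on the reading. Turned, their standard deviation was 0.080 over the 41 odorant and 0.110 over the 36 gustatory receptor probes, against 0.164 over all probes tested. As deposited the standard deviations were 0.135 and 0.158, against 0.153. A receptor had the same sign in both replicates for 39 of 77 members when turned, against 70.3% of all probes. As deposited this was so for 56 of 77 members, against 57.8%.

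**Figure D3:**
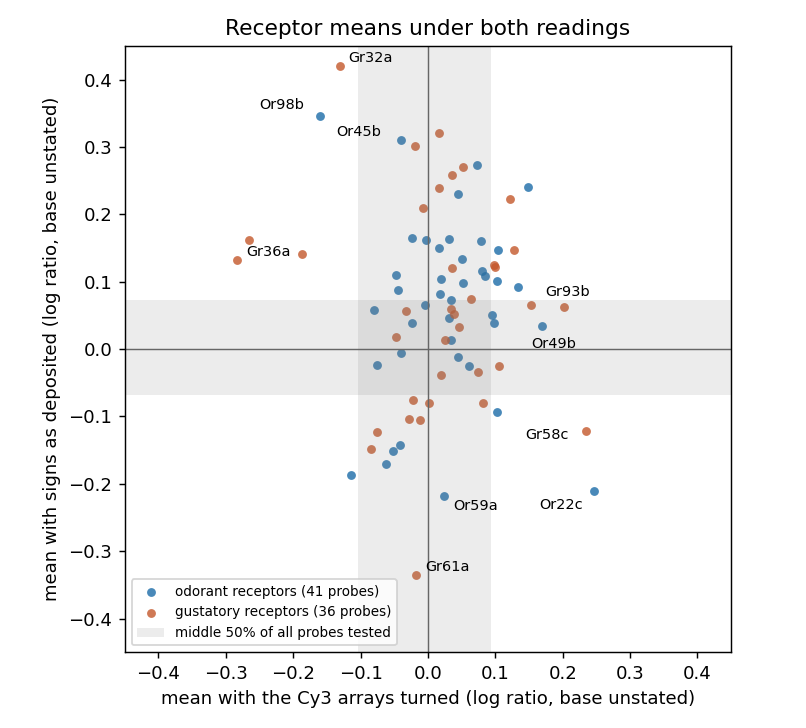
Mean of the 2 replicates of each complete receptor probe with the Cy3 arrays turned (horizontal axis) and with signs as deposited (vertical axis), both in log-ratio units. Grey bands are the interquartile ranges of all probes tested, and 54 of the 77 members lie above 0 on the vertical axis while 48 lie above 0 on the horizontal axis.

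Odorant and gustatory receptors did not differ beyond the spread between replicates. Turned, the median was 0.031 ± 0.020 (SD, n = 2 replicates) for odorant and 0.023 ± 0.048 for gustatory receptors, where that of all probes tested was 0.0043. The difference was 0.0086, with 0.023 in replicate 1 and -0.017 in replicate 2. As deposited, the medians were 0.082 ± 0.075 and 0.061 ± 0.030, and that of all probes tested was 0.0085. The difference was 0.021, with 0.030 in replicate 1 and -0.034 in replicate 2. No test was made of this difference, whose sign was not the same in both replicates.

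The turned median of odorant receptors depended on single arrays. It was -0.030 without the Cy5 array of replicate 1 and 0.108 without the Cy3 array of replicate 1, and 0.022 and 0.048 without the arrays of replicate 2. That of gustatory receptors was 0.0055, 0.071, 0.027 and 0.019 in the same order. As deposited, both medians stayed above 0 when any 1 array was left out, from 0.046 to 0.097 for odorant and from 0.034 to 0.072 for gustatory receptors. The lowest values came without the Cy5 array of replicate 2 in both families. Positive means were found for 30 of 41 odorant and 24 of 36 gustatory receptor probes as deposited, against a background of 53.2%. Turned, the counts were 26 and 22, against 51.3%.

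Receptors with 1 sign on all 4 turned arrays were 5 odorant and 2 gustatory, all positive. This is 7 of 77 members (9.09%), against a background of 28.1%, made up of 12.1% positive and 16.1% negative. With 1 array left out a sign has to hold on the other 3 only. Members with 1 sign then numbered 15 and 11 without the Cy5 arrays of replicates 1 and 2, against 40.6% and 33.4% of all probes. They numbered 37 and 12 without the Cy3 arrays, against 47.9% and 33.8%.

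Among them the highest mean was that of Gr93b, a gustatory receptor gene next to the bitter receptor gene Gr93a. Gr93b stood at 0.360 and 0.167 on the Cy5 arrays of replicates 1 and 2, and at -0.204 and -0.074 on the Cy3 arrays. Its turned mean was 0.201 ± 0.114 (SD, n = 2), with an adjusted p of 0.195 in limma. Or49b, a receptor of an antennal neuron, stood at 0.391 and 0.016 on the Cy5 arrays and at -0.158 and -0.111 on the Cy3 arrays. The Cy5 array of replicate 1 was far above that of replicate 2 for this gene, and its turned mean was 0.169 ± 0.149, with an adjusted p of 0.267 in limma.

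The other members with 1 sign were lower. Or92a, known with Or42b from attraction to vinegar, stood at 0.004 and 0.014 on the Cy5 arrays and at -0.242 and -0.148 on the Cy3 arrays. The Cy5 values of Or92a were near 0, so its turned mean of 0.102 ± 0.030 came from the Cy3 arrays. Gr57a, another gustatory receptor gene, had a turned mean of 0.105 ± 0.053. Or33a, of the larval dorsal organ, had 0.099 ± 0.046, Or47a, a receptor for esters, 0.095 ± 0.070, and Or71a, of the maxillary palp, 0.062 ± 0.032. Adjusted p-values of these 5 in limma ran from 0.407 to 0.613.

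Single receptors with an unadjusted p under 0.05 in the turned reading were Gr93b and, named after their values were seen, Or22c, Gr58c and Gr36a. Or22c, a larval receptor, had the highest turned mean of any member, 0.246 ± 0.072, with an adjusted p of 0.138 in limma. It stood at 0.075 and -0.005 on the Cy5 arrays and at -0.315 and -0.598 on the Cy3 arrays. Gr36a had the lowest, -0.283 ± 0.203, with 0.994 on the Cy3 array of replicate 2 and -0.163 on that of replicate 1. Gr58c had 0.235 ± 0.217. Each of these 3 changed sign on 1 turned array or more.

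As deposited, 16 of 77 members (20.8%) had 1 sign on all 4 arrays, against a background of 13.6%. If the values are dye ratios, such a sign goes with the dye or the probe and is no difference between the IPs. Positive members were 12, 8 odorant and 4 gustatory, against 7.15% of all probes, and negative members were 4, 2 of each family, against 6.45%. With 1 array left out there were 20 and 22 without the Cy5 arrays of replicates 1 and 2, against 19.0% and 26.4% of all probes. There were 23 and 45 without the Cy3 arrays, against 19.6% and 35.5%.

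Gr32a, a taste receptor for a male pheromone that also serves bitter taste, had the highest mean as deposited. It stood at 0.338 and 0.241 on the Cy5 arrays of replicates 1 and 2, and at 0.403 and 0.701 on the Cy3 arrays. All 4 values were high, the mean was 0.421 ± 0.071 (SD, n = 2), and the unadjusted p in limma was 0.00320 (adjusted 0.752). Its turned mean was -0.131 ± 0.140. Gr61a, a sugar receptor of the legs, was the lowest member as deposited, at -0.394 and -0.311 on the Cy5 arrays and at -0.388 and -0.249 on the Cy3 arrays. These 4 values lay close together, averaging -0.336 ± 0.078 with limma's adjusted p at 0.752, and its turned mean was -0.017 ± 0.020.

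Other receptors above 0 on all 4 arrays differed in how far 1 array carried the mean. Or98b stood at 0.337 and 0.036 on the Cy5 arrays and at 0.054 and 0.958 on the Cy3 arrays, so 1 array set most of its mean of 0.346 ± 0.213. Or45b, a larval receptor, stood at 0.465 and 0.077 on the Cy5 arrays and at 0.292 and 0.409 on the Cy3 arrays, with a mean of 0.311 ± 0.096. Or13a, found in larva and adult, stood at 0.428 and 0.264 on the Cy5 arrays and at 0.401 and 0.001 on the Cy3 arrays. The last of these is barely positive, and the mean was 0.274 ± 0.199. Or9a, named after its value was seen, had 0.241 ± 0.020.

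Gustatory receptors above 0 on all 4 arrays were Gr32a, Gr64c, Gr98d and, named after its value was seen, Gr23a (0.121 ± 0.028). Gr64c, of the sugar receptor cluster, had a mean of 0.302 ± 0.224 and Gr98d one of 0.270 ± 0.106. Below 0 on all 4 arrays stood, beside Gr61a, the larval receptor Or59a (-0.218 ± 0.010), Or19b (-0.152 ± 0.097), which is a near copy of Or19a and may share its signal, and 1 probe of Gr39a (-0.104 ± 0.003). Their adjusted p-values in limma ran from 0.752 to 0.772.

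**Figure D4:**
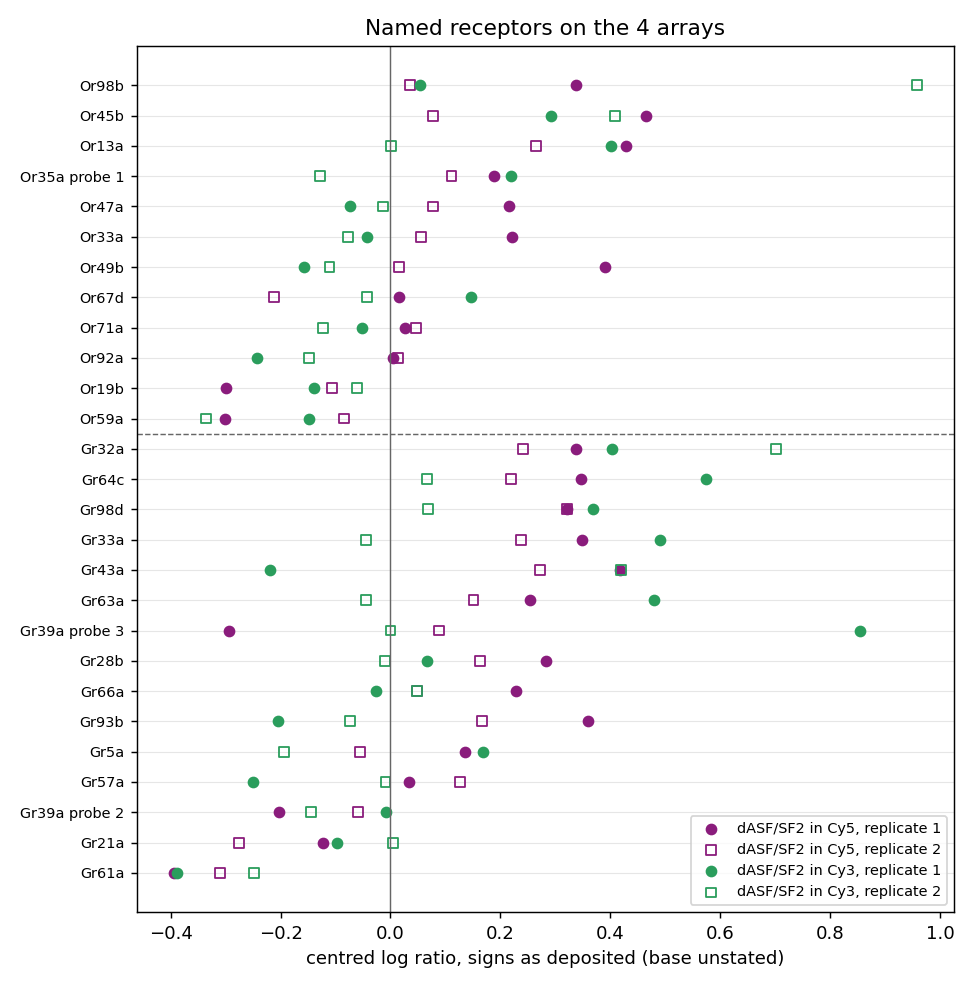
Centred log ratios (horizontal axis, signs as deposited, base unstated) of the named receptors measured on all 4 arrays, 1 receptor or probe per line, odorant above and gustatory below the dashed line. Colour gives the dye of the dASF/SF2 IP and filling the replicate. Gr32a (0.241 to 0.701) and Gr61a (-0.394 to -0.249) lie on 1 side of 0 with either dye, while their turned means are -0.131 and -0.017.

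Larval odorant receptors were looked at apart, since the dissected anterior end holds the dorsal organ, the larval nose. GMR drives transgenes in the developing eye, and whether the GFP fusion was made in the dorsal organ was not examined. Of 25 larval odorant receptor genes listed, 24 had a probe and 19 probes were complete. Turned, 13 were above and 6 below 0, with a median of 0.035, and 2 (Or33a and Or47a) had 1 sign, where 28.1% of all probes did. As deposited, 15 were above and 4 below 0, with a median of 0.065, where 54 of all 77 complete members were above 0. There, 4 were positive and 1 negative on all 4 arrays, against 13.6% of all probes with 1 sign. Of all probes 51.3% were above 0 turned and 53.2% as deposited, which is also the background for the lists below. Adjusted over all probes, 0 of the 19 passed under either reading in limma, while unadjusted p-values under 0.05 were found for 1 turned and 3 as deposited, against backgrounds of 23.2% and 5.57%.

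Among larval receptors known for food odours, Or42b had a turned mean of -0.023 ± 0.076 and Or42a 0.045 ± 0.059. The corresponding means as deposited were 0.039 ± 0.080 and -0.012 ± 0.022, so both lay within their replicate spread of 0. Or24a had -0.0033 ± 0.0286 turned and 0.162 ± 0.089 as deposited. Or35a, a broadly tuned receptor, had 2 probes that disagreed. The complete one stood at 0.188 and 0.111 on the Cy5 arrays and the other at -0.241 and -0.157, so no single value is given for the gene.

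Receptors of adult sensilla were listed too, and Or2a and Or42a stand on a larval and an adult list. Of 8 complete probes of adult trichoid sensilla, which house pheromone receptors, 3 were above and 5 below 0 turned (median -0.024), and 5 above and 3 below as deposited (0.077). Or67d, the receptor for the male pheromone cis-vaccenyl acetate, stood at 0.015 and -0.212 on the Cy5 arrays and at 0.146 and -0.042 on the Cy3 arrays, with a turned mean of -0.075 ± 0.014. Its signs differed between the replicates within each dye, and the adjusted p in limma was 0.531. Of 5 complete probes of the maxillary palp, a second adult nose, 4 were above 0 turned (median 0.062) and 2 as deposited (-0.0053). Adjusted over all probes, 0 of these 13 probes passed in limma.

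The carbon dioxide receptor is a pair of gustatory receptors, Gr21a and Gr63a, made in the same neurons in larva and adult. Gr21a stood at -0.123 and -0.276 on the Cy5 arrays of replicates 1 and 2, and at -0.098 and 0.004 on the Cy3 arrays. Gr63a stood at 0.254 and 0.151 on the Cy5 arrays, and at 0.480 and -0.045 on the Cy3 arrays. The partners thus lay on opposite sides of 0 on every array, but on the Cy3 array of replicate 2 both were near 0 and their order was reversed. As deposited their means were -0.123 ± 0.018 and 0.210 ± 0.222, and turned they were -0.076 ± 0.090 and -0.0075 ± 0.1492, with adjusted p-values in limma of 0.554 and 0.966.

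Sugar receptors, like both families as a whole, were spread more widely as deposited than turned. Of 9 genes listed, 7 had a probe and 5 were complete, with turned means from -0.019 to 0.122 and a median of 0.017. As deposited 4 of the 5 were above 0, with a median of 0.222, and Gr61a was below. Gr43a, a fructose receptor that also works in the brain, stood at 0.417 and 0.272 on the Cy5 arrays and at -0.220 and 0.420 on the Cy3 arrays. The Cy3 arrays of the replicates disagreed for this gene, and its turned mean was 0.122 ± 0.278. Gr5a, a trehalose receptor, was near 0 under both readings, at 0.026 ± 0.061 turned and 0.014 ± 0.195 as deposited.

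The listed bitter receptors had 7 complete probes of 6 genes. Turned, 4 were above and 3 below 0, with a median of 0.017. As deposited 5 were above and 2 below, with a median of 0.163. Gr33a, a co-receptor of bitter taste, stood at 0.348 and 0.238 on the Cy5 arrays and at 0.490 and -0.045 on the Cy3 arrays, so 3 arrays were high and 1 was near 0. Its mean was 0.258 ± 0.228 as deposited and 0.035 ± 0.150 turned. Gr66a, a marker of bitter neurons, had 0.075 ± 0.037 and 0.063 ± 0.090. Of 4 complete probes of pheromone-related gustatory receptors, which overlap the bitter list, 1 was above 0 turned (median -0.079) and 3 were as deposited (0.210). Gr28b, which in larvae also serves light sensing in body wall neurons, had 0.098 ± 0.016 turned and 0.126 ± 0.069 as deposited.

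Gr39a is a single gene with alternative first exons spliced to shared exons, and the array held 4 probes for it. Which isoform each probe reads is not given in the files. One complete probe stood at -0.203 and -0.059 on the Cy5 arrays and at -0.008 and -0.144 on the Cy3 arrays. The other stood at -0.293 and 0.088 on the Cy5 arrays and at 0.855 and 0 on the Cy3 arrays, the last an exact zero. The probes thus disagreed as deposited, at -0.104 ± 0.003 and 0.163 ± 0.168, and their turned means were -0.028 ± 0.099 and -0.265 ± 0.437. The incomplete probes added the value of 2.056 on the Cy3 array of replicate 2 and an exact zero on the same array.

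Many receptor genes lie in tandem groups, and copies in a group can share signal on an array, which was not analysed here. In the RefSeq gene order of assembly Release 6 plus ISO1 MT, 25 pairs of members were direct neighbours, and in 6 pairs both genes had a single complete probe. Signs agreed in 4 of the 6 turned and in 3 as deposited. Agreement among members that are not neighbours was not counted, and 62.3% of complete members were above 0 turned and 70.1% as deposited. The pair of Gr10b and Gr10a and that of Gr10a and Or10a also share a gene. Or10a, a receptor for aromatic odorants, and Gr10a overlap in the annotation. Their means as deposited were 0.151 ± 0.193 and -0.148 ± 0.336, on opposite sides of 0 but within their replicate spread. In the sugar cluster, Gr64c and Gr64f had 0.302 ± 0.224 and 0.321 ± 0.515 as deposited and -0.019 ± 0.135 and 0.017 ± 0.181 turned. Or67a to Or67d ran from -0.075 to 0.081 turned.

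Genes that work beside the receptors were read from a list of chemosensory partners, of which 25 genes had a probe and 21 probes were complete. Turned, 12 were above and 9 below 0, with a median of 0.025, and as deposited 14 were above and 7 below, with 0.027. Adjusted over all probes, 0 passed in limma, and unadjusted p-values under 0.05 were found for 2 positive and 2 negative probes turned, 4 of 21 where 23.2% of all probes had one. The highest turned means were those of the arrestin gene Arr1 (0.251 ± 0.137), the proneural gene ato (0.186 ± 0.066), pdm3, a transcription factor gene of olfactory neurons (0.129 ± 0.101), and Obp83b, an odorant-binding protein gene (0.108 ± 0.042). The lowest were those of the G protein gene Galphas (-0.303 ± 0.216), the arrestin gene krz (-0.185 ± 0.078), Arr2 (-0.086 ± 0.431) and the co-receptor gene Ir8a (-0.080 ± 0.123).

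General neuron markers had 11 complete probes of 9 genes with a probe. Turned, 8 were above and 3 below 0, from -0.310 to 0.164, with a median of 0.051. As deposited 7 were above and 4 below, with 0.084. Over all probes tested, 51.3% were above 0 turned and 53.2% as deposited. With 1 sign on all 4 turned arrays 0 were positive and 2 negative, nSyb (-0.160 ± 0.046) and a brp probe (-0.310 ± 0.194). This brp probe had the only unadjusted p under 0.05 in limma turned (adjusted 0.138). Other complete brp probes stood at 0.058 and 0.136 turned, so probes of this gene disagreed. The part of neuron markers in the receptors' values was not tested.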

How the data were processed

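RNA of anti-GFP immunoprecipitates was compared on 4 two-channel arrays. The deposited values were taken as a score, a log ratio per probe, for which no base, numerator, background correction, normalisation or software is stated. Column medians of the authors' deposited values were near 0, and whether each array had been centred is not stated. The marker -10000, in 73 cells, was treated as no value. Spot brightness and saturation were not analysed here, and the small number of arrays limits the precision.

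Gene names came from GEO's annotation of the platform (13147 probes with 1 symbol, 99 with several, 2498 with none). Of the 118 member probes 117 matched a RefSeq gene by Entrez identifier with no change of symbol, and the probe of Or85e did not. Coordinates are left out because the array's genome build is unstated, and receptor sequences were not used here.

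Arrays were centred on their medians, dye-swapped arrays averaged within a replicate, and the 12847 probes with 4 values tested with limma 3.58.1 in R 4.3.3 (lmFit, eBayes, Benjamini-Hochberg over all probes, threshold 0.05), with the Cy3 arrays turned and as deposited. The titles give each array a dye orientation and a replicate number, and arrays of the same number were paired here as dye swaps. The titles do not say that such arrays share an IP. The test was also run on simulated data with shifts larger than any member's mean, so that run does not bear on differences of the size reported here. Figures used matplotlib 3.10.9 in Python 3.11.15.

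Members and lists were chosen with earlier results of these data known. Named were 9 receptors of known role, any past the threshold, per family and side the 6 largest means with 1 sign turned and the 3 largest as deposited, members with several probes, members of the lists, and up to 4 partners a side. Alternatives changed the turning, block, dye term, missing values, zeros, centring, scaling and probes per gene, or left out 1 array.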

Additional observations from a re-analysis of the deposited data

How the results depend on the processing

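Members past an adjusted p of 0.05 in limma numbered 0 under each alternative and reading, including the replicate block, where 1119 of all 12847 probes were called turned (estimated correlation within a block -0.408) and 0 as deposited. Turned, 184 and 66 of all probes were called without the Cy5 and the Cy3 array of replicate 1, 3 with exact zeros read as missing and 3 with 1 value per gene. With that block, 19 members had an unadjusted p under 0.05 as deposited, in place of 9, and 6 turned, in place of 4, against 12.3% and 29.7% of all probes. On the 4 arrays without a block the turned count was 1 (all probes 19.1%), and with 1 value per gene the count as deposited was 17 of 76 (all genes 10.1%). With values needed on 1 array per replicate only, members with 1 sign were 16 turned and 25 as deposited, among 103 members (all probes 28.0% and 15.9%), and 14 had an unadjusted p under 0.05 as deposited (5.36%). Not turning the arrays changed the turned counts from 4 to 9 and from 7 to 16, and the odorant receptor median from 0.031 to 0.082. With exact zeros read as missing, the turned odorant minus gustatory median changed sign, from 0.0086 to -0.004.

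Leaving out 1 array at a time gave, turned, 1 to 7 members with an unadjusted p under 0.05, 11 to 37 with 1 sign, odorant medians from -0.030 to 0.108, gustatory medians from 0.0055 to 0.071 and differences from -0.035 to 0.036. The difference was -0.0043 without the Cy5 array of replicate 2. As deposited it gave 3 to 11, 20 to 45, and differences from 0.012 to 0.033. No other centring or scaling changed the sign of a family median. Of 27 named complete probes, 5 to 8 changed sign turned and 2 to 5 as deposited when 1 array was left out. The causes were not tested.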
